A study of Mus musculus with 4 samples.

Results

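The cytosolic ribosomal protein genes were described in single cell RNA-sequencing of muscle stem cells (MuSCs), the stem cells of adult skeletal muscle. Members were the genes whose symbol is Rpl or Rps followed by a number, with its letter or digit suffixes, together with *Rpsa*, *Rplp0*, *Rplp1* and *Rplp2* and without symbols that mark a pseudogene. This rule found 84 of the 32285 genes counted, 52 of the large and 32 of the small ribosomal subunit. It uses names and no measured value. Of these, 81 had a mean of at least 10 CPM (UMIs of a gene scaled to a fixed total per sample) over the myogenic cells, and the other members were the paralogs *Rpl3l*, *Rpl10l* and *Rpl39l*.

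The 4 samples were tdTomato+ cells sorted from the skeletal muscle of C57BL/6J mice aged 3 to 4 months, 14 days after tamoxifen. Each was a pool from 2 littermates and was sequenced as 1 library of 3′ ends, with 2 samples per genotype. Control mice carried the Pax7CreERT2 allele and the Rosa26-tdTomato reporter with unfloxed α-catenin genes. α-cdKO mice carried Ctnna1fl/fl and Ctnna3fl/fl with the same Cre and reporter. All groups therefore had Cre under control of *Pax7* and tamoxifen, and the deletion was limited to cells that expressed *Pax7* when tamoxifen was given. A sample is a pool, so spread between samples of a genotype is spread between pools.

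Kept cells had at least 1000 unique molecular identifiers (UMIs, each marking a captured RNA molecule), at least 400 genes and under 15% mitochondrial UMIs. Sets of 4 values are given throughout in the order control replicate 1, control replicate 2, α-cdKO replicate 1, α-cdKO replicate 2. The kept cells numbered 5484, 5354, 9786 and 8166, with medians of 7723.5, 8075, 6452.5 and 7682.5 UMIs. Pairs of libraries shared from 9 to 26 cell barcodes. Clustering was done with the ribosomal protein genes barred, and clusters were named from marker lists. The quiescent-like cluster (4367 cells) was led by *Fos*, *Jun* and *Hes1* and had 5 quiescence markers raised. The activated-like cells formed a chemokine-high cluster led by *Cxcl3* and *Cxcl5* (11591 cells) and a chaperone-high cluster led by *Dnaja4*, *Clu* and *Dnaja1* (8791 cells). The differentiating-like (1407), cycling-like (642) and mature-myocyte-like (376) clusters were led by *Cdkn1c* and *Myog*, *Hist1h2ap* and *Top2a*, and *Tnnc2* and *Tnnt3*. Neutrophil genes *S100a8* and *S100a9* were also among the leading genes of the cycling-like cluster, of which control replicate 1 held 31 cells. Mature-muscle-like (1305), endothelial-like (179) and immune-like (132) clusters were set aside from the myogenic cells. These states are clusters of the same cells, so differences between them are descriptions with no test.

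Ribosomal proteins assemble with ribosomal RNA into the large and small subunits of the cytosolic ribosome, which translates nearly all cellular mRNA. Most of their mRNAs start with a terminal oligopyrimidine (TOP) tract, a C followed by a run of C and T, through which growth signals acting by mTORC1 control their translation. Quiescent MuSCs are small cells with little protein synthesis, and when activated they enlarge and make new ribosomes. Assembly also needs biogenesis factors, nucleolar proteins that process ribosomal RNA and fold it with its proteins. Several members have a paralog, a related gene that can take the partner's place in the ribosome or has another task.

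Start-site sequences were looked up because the TOP tract is the feature most members share. RefSeq start-site sequences of the GRCm38.p6 assembly were given for 64 members. A C at the annotated start followed by at least 4 pyrimidines (C or T, read on the gene's strand only) was found for 13 of the 64, or 20.3%, and for 2.91% of the 20267 listed genes with such a sequence. Allowing this run to begin within 10 bases either side of the annotated start gave 60.9% of members and 35.2% of all genes. Of the 7 paralogs with a sequence, 0 had the run at the start itself and 5 had it within 10 bases. These are matches of letters at annotated starts, which can be some bases from the start a cell uses. The windows below run from 20 bases before the start to the tenth base of the transcript, with the pyrimidine run that begins at the start in capitals. They are shown for 4 members that the results return to and that have the run, and then for 3 paralogs without it.
*Rps6* (chr4:86857358-86857387, minus strand): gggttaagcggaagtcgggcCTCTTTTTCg
*Rps15a* (chr7:118116138-118116167, minus strand): gcccactctctttctgccatCTTCCCTCgc
*Rps21* (chr2:180257359-180257388, plus strand): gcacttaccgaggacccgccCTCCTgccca
*Rplp2* (chr7:141447631-141447660, plus strand): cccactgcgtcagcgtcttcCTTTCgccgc
*Rpl7l1* (chr17:46782647-46782676, minus strand): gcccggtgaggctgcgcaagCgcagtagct
*Rpl36al* (chr12:69184058-69184087, minus strand): gttcgcattcccgtcgctcaggttcagttc
*Rpl22l1* (chr3:28805488-28805517, plus strand): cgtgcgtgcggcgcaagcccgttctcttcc
In *Rpl7l1* a lone C stands at the start, and *Rpl36al* has no such run within 10 bases. The run of *Rpl22l1* lies inside the window but not at its annotated start. *Rps21* has a further annotated start without the run.

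Ribosomal protein mRNA was a large part of the RNA captured, and among the myogenic states its share had the highest mean in quiescent-like cells. Over all kept cells the members held 32.7%, 30.6%, 34.0% and 33.4% of the UMIs. In quiescent-like cells the share was 37.4%, 37.1%, 40.3% and 37.5%. In activated-like cells it was 32.8%, 31.9%, 35.2% and 33.5%. Every sample was lower in its activated-like than in its quiescent-like cells, and the lowest quiescent-like value lay above the highest activated-like value. The mean log2 ratio of the shares was −0.19 ± 0.02 (SD, n = 4), or 0.876-fold. With quiescent-like and chemokine-high activated-like cells set by fixed marker genes per cell in place of clusters, the log2 ratio was −0.0755. Between the quiescent-like and chemokine-high clusters it was −0.15. The exact (Clopper-Pearson) 95% interval of a quiescent-like share reached at most 0.041 percentage points either side, which covers counting error only.

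Within the activated-like cells the chemokine-high cluster had 33.5%, 33.0%, 35.9% and 34.7%, and the chaperone-high cluster 31.8%, 30.6%, 34.4% and 32.4%. The chaperone-high share was the lower in every sample (mean log2 ratio −0.09 ± 0.02, SD, n = 4). Chaperone, chemokine and immediate-early genes took from 6.41% to 10.9% of UMIs in the chaperone-high cluster and from 1.88% to 2.55% in the chemokine-high cluster. They took from 6.73% to 10.9% in quiescent-like cells. With these and mitochondrial UMIs taken out of the denominator, the log2 ratio of activated-like to quiescent-like shares was −0.27. The chaperone-high share above is of a denominator that holds more of these UMIs than the chemokine-high one. Whether it stays the lower with them taken out was not tested.

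Shares were lower again in differentiating-like cells, at 31.1%, 29.1%, 30.3% and 31.0%, and lowest of the myogenic states in cycling-like cells, at 23.8%, 23.9%, 26.3% and 25.8%. The differentiating-like values overlapped those of the chaperone-high cluster, and the cycling-like values lay below those of every other myogenic state. Mature-myocyte-like cells had 35.6%, 32.0%, 37.4% and 34.1%, which overlapped the range of activated-like cells. In the control replicate 2 library these cells had a median of only 1276.5 UMIs. Their cluster appeared only in the main clustering of myogenic cells. It was absent with all genes eligible as variable genes, without integration and with other seeds. Among the clusters set aside, endothelial-like cells had from 16.4% to 24.9%, immune-like cells from 13.9% to 22.3% and mature-muscle-like cells from 13.7% to 25.3%. Mitochondrial UMIs were 1.07% to 3.96% in the mature-muscle-like cells, against 5.51% to 6.31% over all kept cells. The barcodes removed by the filter had from 13.8% to 18.5%.

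In activated-like, differentiating-like and cycling-like cells the lower share did not go with fewer ribosomal protein molecules captured per cell. The median cell held 2357, 2706, 2105 and 2411 ribosomal protein UMIs in the quiescent-like state. It held 2679, 2834, 2285 and 2686 in the activated-like state, more in every sample (mean log2 ratio 0.13 ± 0.05, SD, n = 4). Total UMIs per cell differed by more, with a mean log2 ratio of 0.37 ± 0.02. In cycling-like cells the median was 5047, 4685, 3923 and 4283 ribosomal protein UMIs, a mean log2 ratio of 0.90 ± 0.14 against 1.51 ± 0.10 for all UMIs. Differentiating-like cells held from 3210.0 to 4457. In these states the share was lower while the number per cell was higher, as total UMIs were higher by more. UMIs captured per cell follow RNA content and capture alike, which cannot be told apart here.

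**Figure D1:**
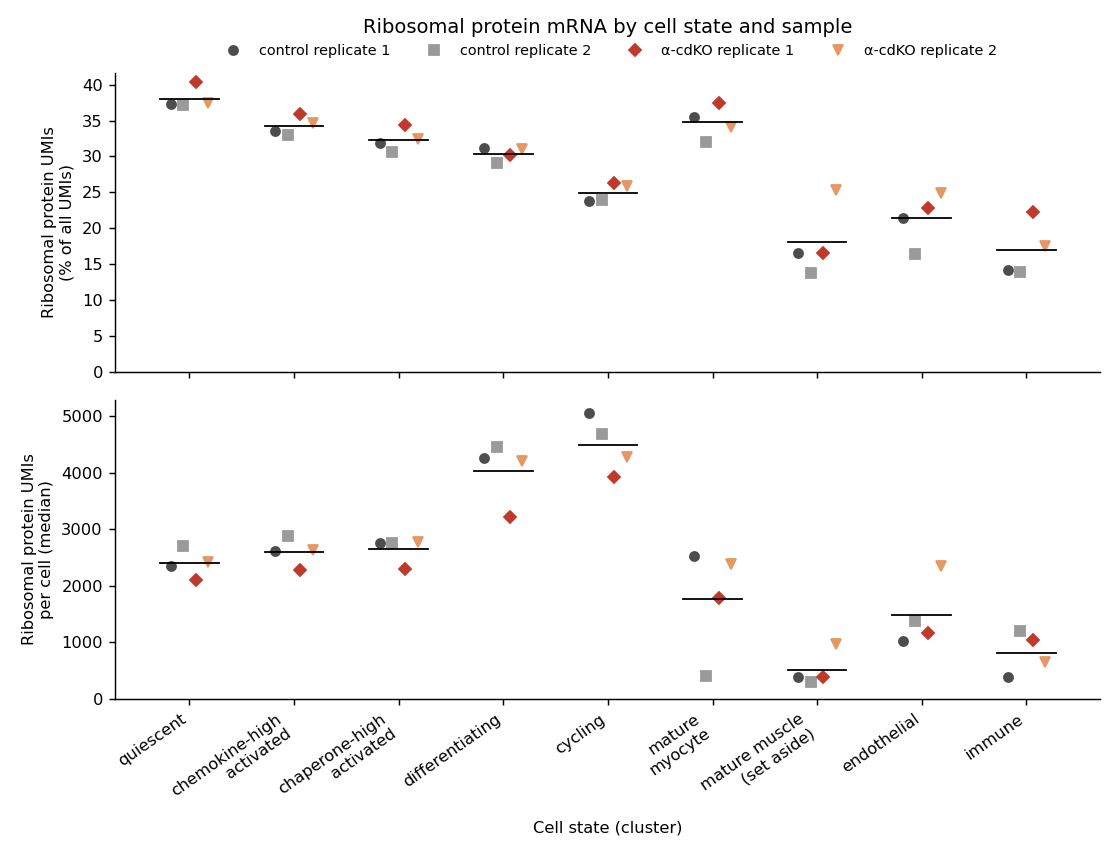
Ribosomal protein UMIs as a percentage of all UMIs (upper panel) and as the median number per cell (lower panel) in each cell state. Points are samples and black lines the mean of the 4 samples, and the share falls from 37.1% to 40.3% in quiescent-like to 23.8% to 26.3% in cycling-like cells while the number per cell is highest in cycling-like cells.

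The states also differed at matched depth. Among cells of 5000 to 8000 UMIs, quiescent-like cells had 39.9%, 39.6%, 41.1% and 39.5%. Activated-like cells of that depth had 33.2%, 32.8%, 35.6% and 34.9%. The lowest quiescent-like sample was above the highest activated-like sample. Of the myogenic states, quiescent-like cells varied most from cell to cell in every sample, with a within-sample SD of 9.52 to 9.93 percentage points, against 5.43 to 5.96 in the chemokine-high cluster. Quiescent-like cells were further divided by *Fos*, an immediate-early gene that dissociation is known to induce. Quiescent-like cells without a *Fos* UMI had 41.4%, 42.1%, 44.4% and 41.8%, and those with one had 36.9%, 36.5%, 39.2% and 36.9%. The cells without *Fos* were the shallower, with medians of 4254 to 5147 UMIs against 5296 to 7282. Immediate-early, chaperone and chemokine genes, *Fos* among them, took 1.68% to 3.32% of their UMIs. In cells with a *Fos* UMI these genes took 7.85% to 11.9%, as part of the same denominator.

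The shift was shared by most of the family. For each member the log2 ratio of CPM between activated-like and quiescent-like cells of a sample was taken, with 5 CPM added. Of the 81 members with 10 CPM, 73 were lower in activated-like cells in all 4 samples, where 37.8% of the 5944 genes at that level were. Only *Rpl7l1* and *Rpl36al* were higher in all 4 samples, where 45.4% of all genes were. The median log2 ratio of the members was −0.19, with an interquartile range of −0.24 to −0.12, and that of all genes was 0.08 (−0.37 to 0.58). In differentiating-like cells 71 of 81 members were lower than in quiescent-like cells in all 4 samples (18.7% of all genes) and 5 higher (57.2% of all genes), with a median of −0.31. In cycling-like cells 76 were lower (12% of all genes) and 4 higher (60.9% of all genes), with a median of −0.59. The subunits moved alike, with mean log2 ratios of activated-like to quiescent-like shares of −0.19 ± 0.02 for each of the large- and small-subunit genes (SD, n = 4).

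Among the members with the most UMIs were *Rpl13* (8259.6 ± 314 CPM over myogenic cells, SD, n = 4), *Rpl23* (7265 ± 282), *Rps21* (7183 ± 190.0) and *Rps28* (6962 ± 278). These are UMIs counted at 3′ ends and are not scaled by length. *Rplp0*, *Rplp1* and *Rplp2* form the stalk of the large subunit that recruits elongation factors, and *Rpsa* is a small-subunit protein also known as the laminin receptor. Their log2 ratios were −0.15 ± 0.02, −0.18 ± 0.03, −0.06 ± 0.03 and −0.24 ± 0.03, and *Rplp2* stood highest of these relative to the family (departure 0.12 ± 0.02).

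Other genes of ribosome production and translation moved in both directions. The lists compared were 21 translation factors and other genes with TOP mRNAs, 30 ribosome biogenesis genes and 78 mitochondrial ribosomal proteins, which build a separate ribosome for mitochondrial mRNA. Of the 29 biogenesis genes with 10 CPM, 26 were higher in activated-like than in quiescent-like cells in all 4 samples (45.4% of all genes) and 0 were lower in all 4 (37.8% of all genes), with a median log2 ratio of 0.82. Among them *Ddx21*, a nucleolar RNA helicase, went from 119 ± 16.3 to 483 ± 51.5 CPM (SD, n = 4), *Myc*, which drives ribosome synthesis, from 93.7 ± 6.97 to 339 ± 55.2, and *Nolc1*, a nucleolar phosphoprotein, from 41.8 ± 8.06 to 135 ± 12.7. *Dkc1*, the pseudouridine synthase of H/ACA complexes, had the lowest ratio, with 38.1 ± 2.80 and 33.9 ± 5.25 CPM. The biogenesis list held from 0.254% to 0.293% of UMIs in quiescent-like cells. It held from 0.531% to 0.669% in the chemokine-high cluster and from 0.399% to 0.448% in the chaperone-high cluster, and these groups did not overlap.

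Of the 21 TOP genes, 14 were lower in all 4 samples and 5 higher (37.8% and 45.4% of all genes), with a median of −0.16. The initiation factor *Eif4b* (log2 ratio −0.49 ± 0.05) and the eIF3 subunits *Eif3f* (−0.49 ± 0.06) and *Eif3k* (−0.47 ± 0.04) had the lowest ratios. *Pabpc1*, the cytoplasmic poly(A)-binding protein, went the other way, from 465 ± 31.2 to 957 ± 45.1 CPM. Of the 63 mitochondrial ribosomal protein genes with 10 CPM, 43 were lower in all 4 samples and 10 higher, beside the same shares of all genes, with a median of −0.43. In differentiating-like and cycling-like cells, however, the mitochondrial ribosomal protein share was above that of quiescent-like cells in all 4 samples, with mean log2 ratios of 0.47 ± 0.14 and 0.60 ± 0.11, where the cytosolic share was lower in all 4.

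**Figure D2:**
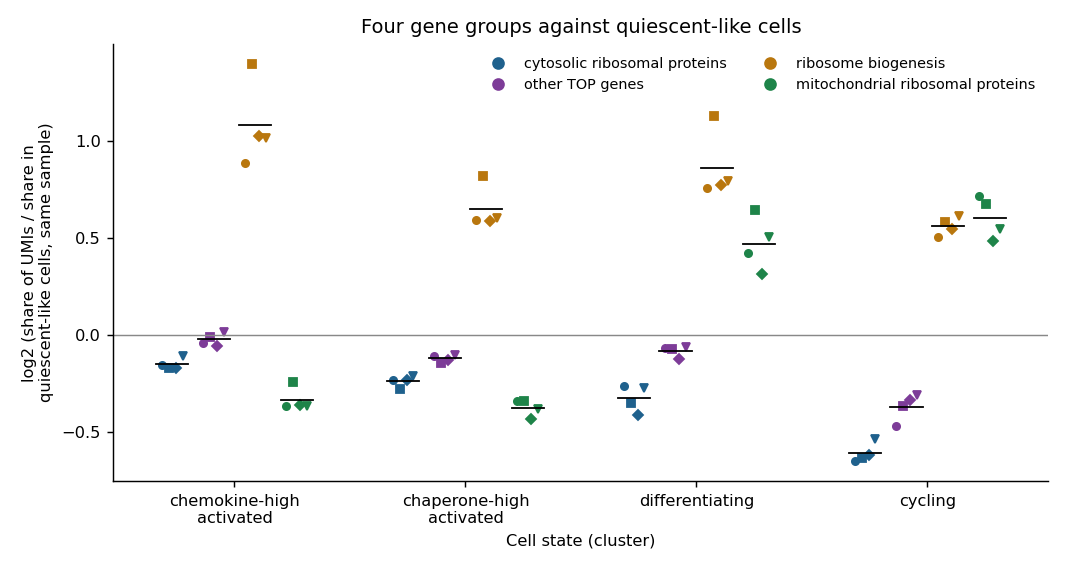
Log2 ratio of the share of UMIs held by each gene group to its share in quiescent-like cells of the same sample. Circles and squares are control replicates 1 and 2, diamonds and triangles α-cdKO replicates 1 and 2, and bars the mean of the 4 samples; ribosomal proteins lie below 0 in all 4 states, while biogenesis genes lie above 0 in every sample.

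Single members that left the family were sought as departures, the member's log2 ratio minus the median of the 81 members in the same sample. For 64 members the departure had the same sign in all 4 samples, 31 above and 33 below the family. Departures are centred on the members' median, so similar numbers above and below follow from the definition. The same count was not made over all genes, so it has no background to be read against. The 2 largest departures belonged to paralogs.

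*Rpl7l1* (ENSMUSG00000063888, chromosome 17, 46773907 to 46782672) departed most. Despite its name it is related to a yeast factor that assembles the large subunit. It had 48.3, 50.4, 40.7 and 43.1 CPM in quiescent-like cells and 102, 116, 93.5 and 90.2 CPM in activated-like cells. Each sample was thus higher in its activated-like cells, and the states did not overlap. Its log2 ratio was 1.06 ± 0.07 and its departure 1.25 ± 0.09 (SD, n = 4), beside a median log2 ratio of 0.82 for the biogenesis genes. It stayed above the family in differentiating-like (departure 1.24 ± 0.04) and cycling-like cells (1.35 ± 0.11). Its UMIs were 1.21%, 1.33%, 1.04% and 1.17% of the sum of *Rpl7l1* and *Rpl7* UMIs in quiescent-like cells and from 2.58% to 3.28% in activated-like cells.

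*Rpl36al* (ENSMUSG00000049751, chromosome 12, 69182731 to 69184083) is the autosomal paralog of *Rpl36a*. It had 552, 570.3, 667 and 627 CPM in quiescent-like and 615, 709.6, 783 and 757 CPM in activated-like cells, higher in each sample although the ranges overlapped. Its log2 ratio was 0.24 ± 0.07 and its departure 0.43 ± 0.08, whereas *Rpl36a* had a log2 ratio of −0.29 ± 0.05. The paralog's part of their summed UMIs was 15.8% ± 1.18 in quiescent-like, 21.4% ± 1.83 in activated-like and 27.3% ± 2.51 in differentiating-like cells (SD, n = 4). Of the 90-base stretches in the last 300 bases of *Rpl36a* transcripts, 91.0% also occur in the listed gene *Rpl36a-ps1*, so its counts can be split between them and this part is uncertain as a level.

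*Rpl22l1* (ENSMUSG00000039221, chromosome 3, 28805436 to 28807424) is the paralog of *Rpl22*, an RNA-binding protein of the large subunit. Its locus overlaps the listed gene *Gm33051*, from which its reads may not be fully separable. *Rpl22l1* had 1049.7, 1242, 1387 and 1211 CPM in quiescent-like and 1080.2, 1301, 1327 and 1233 in activated-like cells. *Rpl22* had 2090.0, 2118, 2408 and 2363 in quiescent-like and 1756, 1638, 1880.5 and 1923 in activated-like cells. The paralog's states overlapped (log2 ratio 0.02 ± 0.06), and those of *Rpl22* did not (−0.32 ± 0.06). The departures were 0.21 ± 0.07 and −0.13 ± 0.05. *Rpl22l1* made up 35.2% ± 1.80 of the pair's UMIs in quiescent-like, 40.7% ± 2.75 in activated-like and 46.5% ± 0.983 in cycling-like cells.

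Members of the core set departed by less than *Rpl7l1* and *Rpl36al*. *Rps6*, the small-subunit protein phosphorylated by S6 kinases, had 2506, 2280.1, 2546 and 2150.4 CPM in quiescent-like and 2555, 2369.7, 2488 and 2233 in activated-like cells, which overlapped (departure 0.22 ± 0.05). Below the family stood *Rpl11*, which with *Rpl5* and 5S RNA can bind the p53 regulator Mdm2. It had 3763, 3798, 4179.9 and 3824 CPM in quiescent-like and 2989, 2903, 3286 and 3081 in activated-like cells, with no overlap (log2 ratio −0.34 ± 0.03, departure −0.15 ± 0.01). *Rpl29* (−0.14 ± 0.03), *Rpl10a* (−0.14 ± 0.03), *Rpl22* and *Rpl37a* (−0.12 ± 0.02), all of the large subunit, had the next lowest departures. Cells were also gated by marker genes per cell as quiescent-like or chemokine-high activated-like, with no gate for chaperone-high cells. By these gates the departure of *Rpl11* was −0.05, that of *Rpl22l1* 0.08, that of *Rpl36al* 0.24 and that of *Rpl7l1* 0.49, with their directions kept. The departures above are of all activated-like cells, so the sets of values are not like for like.

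**Figure D3:**
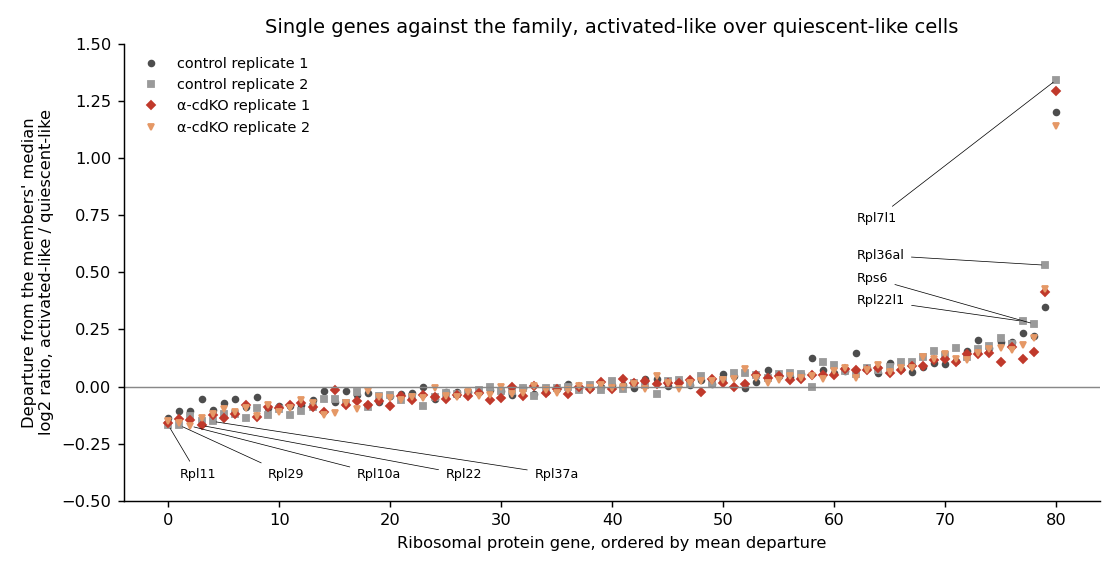
Departure of each of 81 ribosomal protein genes (y axis, log2) from the members' median ratio of activated-like to quiescent-like CPM, with genes ordered by mean departure and a point per sample. *Rpl7l1* (1.25) and *Rpl36al* (0.43) stand above the rest, and *Rpl11* (−0.15) is lowest.

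Other paralogs differed in later states. *Rps27l* (ENSMUSG00000036781, chromosome 9, 66946086 to 66949516), a paralog of *Rps27* known as a p53 target, had 287, 339, 430.2 and 293 CPM in quiescent-like cells and 277, 302, 397 and 269 in activated-like cells. It had 463, 516, 788 and 475 CPM in differentiating-like and 425, 591, 608 and 458 in cycling-like cells. Each sample was higher in both of these states than in its quiescent-like cells, and only the cycling-like value of control replicate 1 lay below the highest quiescent-like value. Its log2 ratios to quiescent-like cells were 0.71 ± 0.11 and 0.62 ± 0.13, against a family median of −0.31 and −0.59. *Rps27l* UMIs were 4.49%, 5.15%, 6.05% and 4.62% of the pair's in quiescent-like, 9.59%, 11.1%, 14.8% and 9.98% in differentiating-like and 12.8%, 15.3%, 14.1% and 11.3% in cycling-like cells. The highest value in differentiating-like cells was that of the α-cdKO replicate 1 library. Of the end stretches of *Rps27*, 51.7% also occur in the listed copy *Rps27rt*, so the percentages are uncertain as levels.

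Among core members of these later states, 2 were singled out after their values were seen. *Rpl41*, the smallest ribosomal protein, had 5108, 5368, 6219.6 and 5724 CPM in quiescent-like, 6066, 6117, 6081 and 6319 in differentiating-like and 5825, 5985, 6245 and 6179.5 in cycling-like cells. Its quiescent-like values overlapped those of both later states, and α-cdKO replicate 1 was lower in differentiating-like than in quiescent-like cells. Its departures, which are relative to the lower family median, were 0.45 ± 0.08 and 0.71 ± 0.11. Of its end stretches, 35.9% occur in another listed gene. *Rps21* had the lowest departure in both states. It went from 8652, 8722, 9016 and 8732 CPM in quiescent-like to 5472, 4977, 5119 and 5519 in differentiating-like and 3606, 3797, 4109.7 and 4331 in cycling-like cells, with no overlap, and its departures were −0.42 ± 0.05 and −0.56 ± 0.06.

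*Rpl3l* (ENSMUSG00000002500, chromosome 17, 24727820 to 24736143), the paralog of *Rpl3* in striated muscle fibers, was nearly absent from MuSC states. It had from 0.451 to 2.03 CPM in quiescent-like cells and from 0.481 to 1.12 in activated-like cells. In differentiating-like cells it had at most 1.89 CPM. In mature-muscle-like cells it had 606, 612, 521 and 273 CPM, beside 697, 354, 562 and 1429.9 CPM of *Rpl3*. It thereby made up 46.5%, 63.4%, 48.1% and 16.02% of the pair's UMIs, against 0.0435% ± 0.0253 in quiescent-like cells. α-cdKO replicate 2, with the lowest *Rpl3l*, also had the highest ribosomal protein share and the most mitochondrial UMIs (3.96%) of the mature-muscle-like cells. *Ckm*, the muscle creatine kinase, had 15183 ± 4539 CPM in those cells, 482 ± 367 in mature-myocyte-like cells and 42.0 ± 22.3 in quiescent-like cells. *Rpl3l* in mature-myocyte-like cells was 16.02, 17.6, 19.6 and 5.51 CPM. It moved with *Ckm* between the states, and whether muscle fiber RNA free in the suspension gave its low counts in other cells was not tested. *Rpl39l* and *Rpl10l*, both best known from testis, had 14 and 6 UMIs over all myogenic cells of the 4 samples, against 1596459 of *Rpl39* and 617380 of *Rpl10*.

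**Figure D4:**
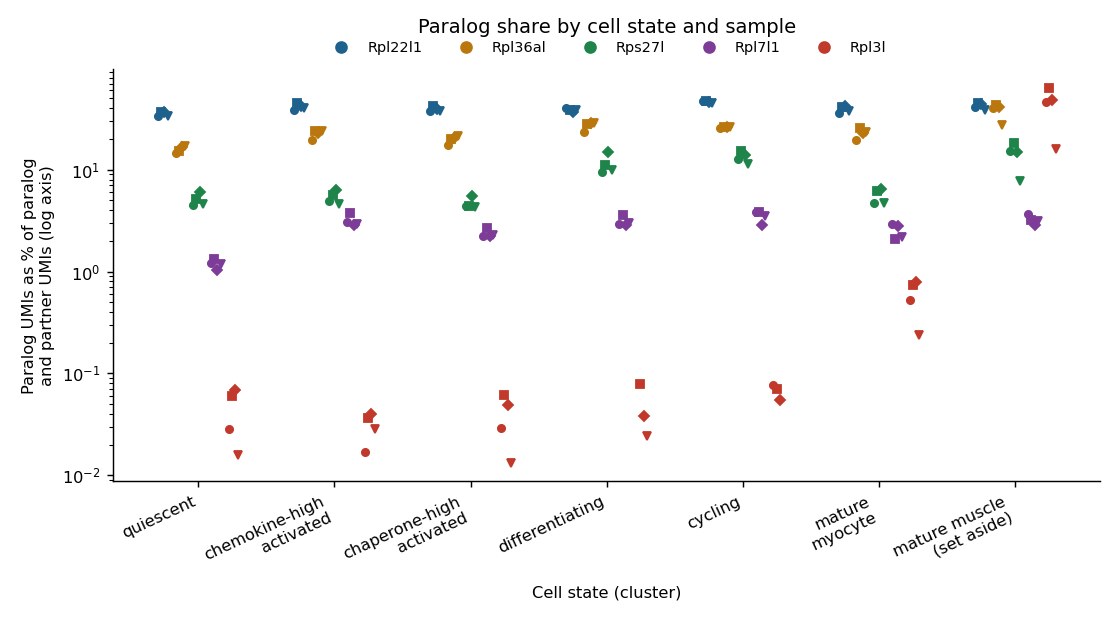
UMIs of 5 paralogs as a percentage of paralog and partner UMIs (log axis) in 7 cell states. Circles and squares are control replicates 1 and 2, diamonds and triangles α-cdKO replicates 1 and 2, and 2 *Rpl3l* values of 0 are not drawn; *Rpl3l* lies below 0.1% in the first 5 states and between 16.02% and 63.4% in mature-muscle-like cells.

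The comparison of genotypes asked whether loss of α-catenins went with a change in ribosomal protein mRNA. The labels could not be checked on the deleted genes. *Ctnna1* had 91.0, 74.8, 79.3 and 75.6 CPM in all myogenic cells, with overlapping genotypes, and *Ctnna3* had 1, 2, 2 and 7 UMIs. UMIs are counted at 3′ ends, and whether these lie in the deleted parts is not given in the sources used here. Ribosomal protein shares had a higher mean in α-cdKO in every cluster. In all myogenic cells control samples had 33.1% and 32.2%, and α-cdKO samples had 34.4% and 33.6%, without overlap. The means were 32.7% ± 0.617 and 34.0% ± 0.591 (SD, n = 2), a log2 ratio of 0.06 that was 0.04 without control replicate 2 (exact permutation test, two-sided, p = 0.33). In quiescent-like cells the means were 37.2% ± 0.177 and 38.9% ± 2.01, a log2 ratio of 0.06 (the same exact test, p = 0.33). The genotypes were separated here only by the margin between 37.5% in α-cdKO replicate 2 and 37.4% in control replicate 1. The log2 ratio was 0.01 without α-cdKO replicate 1 and 0.11 without α-cdKO replicate 2. In activated-like cells the means were 32.3% ± 0.612 and 34.3% ± 1.22, a log2 ratio of 0.09 (the same exact test, p = 0.33) that was 0.05 without α-cdKO replicate 1. With 2 samples per genotype no p below 0.33 can be reached by this exact test.

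α-cdKO replicate 1, with the highest shares of quiescent-like and activated-like cells, was also the library with the fewest UMIs in its median cell. Among cells of 5000 to 8000 UMIs the genotypes still did not overlap in activated-like cells, with 33.2% and 32.8% against 35.6% and 34.9% in α-cdKO. In quiescent-like cells of this depth they overlapped, with 39.9% and 39.6% against 41.1% and 39.5%. Cycling-like cells had 23.9% ± 0.102 in control and 26.0% ± 0.321 in α-cdKO without overlap, and differentiating-like cells overlapped (30.1% ± 1.44 and 30.6% ± 0.514, exact permutation test, p = 1). The direction was the same in the endothelial-like and immune-like clusters, whose cells were sorted by the same reporter. Endothelial-like cells had 21.4% and 16.4% against 22.8% and 24.9% in α-cdKO, and immune-like cells 14.2% and 13.9% against 22.3% and 17.5%. A difference between libraries and a difference between genotypes cannot be told apart from these values.

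Gene by gene, no member was called between genotypes in edgeR (quasi-likelihood test, p-values adjusted by Benjamini-Hochberg over all genes tested). In all myogenic cells 0 of 82 members had an adjusted p under 0.05, where 0.164% of 14633 genes did. In quiescent-like cells it was 0 of 82, with 0.0779% of 11553 genes, and in activated-like cells 0 of 82, with 0.374% of 13366 genes. At an unadjusted p under 0.05 there was 1 member in each, or 1.22% of members, where 7.03%, 7.91% and 7.47% of all genes were in the same order of populations. DESeq2 also called 0 members. By value, 58, 72 and 74 of the 82 members were higher in α-cdKO in the same populations, with median log2 fold changes of 0.05, 0.08 and 0.12, where all genes had −0.01 in each. Both α-cdKO samples were above both controls for 31 of 82 members in all myogenic cells (19.1% of all genes), 46 in quiescent-like (20.4%) and 55 in activated-like cells (18.9%). They were below both controls for 1 (19.8% of all genes), 2 (20%) and 2 members (19%). The members are measured in the same libraries and are not independent, so these counts restate the shares above.

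*Rpl39* (ENSMUSG00000079641, chromosome X, 37082520 to 37085402), a short protein of the large subunit's exit tunnel, had the lowest p in each population. In activated-like cells TMM-normalized CPM was 5717 and 6213 for the controls, against 7979 and 7011 for the α-cdKO samples, a log2 fold change of 0.33 ± 0.12 (SE, edgeR adjusted p = 0.577). In quiescent-like cells it was 0.32 ± 0.13 (SE, edgeR adjusted p = 0.572), and in all myogenic cells 0.25 ± 0.10 (SE, edgeR adjusted p = 0.701). The genotypes did not overlap in any of the 3 populations. With no filter on low counts, edgeR called it in quiescent-like cells (log2 fold change 0.33, adjusted p = 0.0318), the only member called under any setting tried. It too was higher in both α-cdKO samples in endothelial-like cells, at 4621 and 4950.0 CPM against 3256 and 2904 CPM for the controls. The other X-linked members *Rps4x*, *Rpl10* and *Rpl36a* had log2 fold changes of 0.07, −0.01 and −0.0038 in all myogenic cells. They had 0.15, 0.06 and 0.09 in activated-like cells, and 0.11, 0.03 and 0.03 in quiescent-like cells. None of their adjusted p from edgeR was under 0.05. Of the end stretches of *Rpl10*, 80.6% also occur in the listed gene *Rpl10-ps3*.

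*Rps15a* came next in the separate states, with log2 fold changes of 0.27 in quiescent-like and 0.27 in activated-like cells (adjusted p = 0.641 and 0.673 from edgeR). *Rpl36al* in quiescent-like cells (0.24, adjusted p = 0.657 from edgeR) and *Rpl37* in activated-like cells (0.22, adjusted p = 0.713 from edgeR) followed, each with both α-cdKO samples above both controls. *Rpl7l1* went the other way by value. Over all myogenic cells its TMM-normalized CPM was 82.0 and 85.8 for the α-cdKO samples, against 97.1 and 103 for the controls (log2 fold change −0.25 ± 0.11, SE, edgeR adjusted p = 0.717). In all 3 populations its α-cdKO values lay under the control values. The other member below both controls in quiescent-like and activated-like cells was *Rpl5*, with log2 fold changes of −0.09 and −0.08. None of these differences passed the test.

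**Figure D5:**
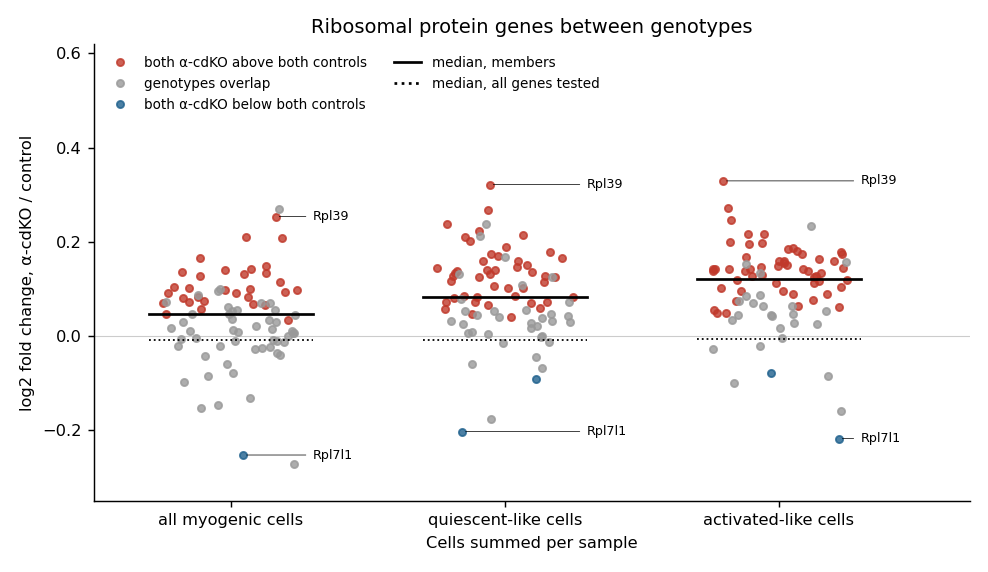
Log2 fold change between α-cdKO and control of 82 ribosomal protein genes (points) in 3 populations of cells, with the members' median as a solid and the median of all genes tested as a dotted line. Red and blue points are members whose α-cdKO samples both lie above or below both controls, and grey points overlap. The members' medians lie at 0.05, 0.08 and 0.12, and no point is past an adjusted p of 0.05.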

How the data were processed

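Raw UMI counts per gene and cell barcode were used as deposited. The authors made these counts with Cell Ranger 7.1.0 (per the file headers) on GRCm38/mm10, and Seurat 4.0.3 is also listed in the submitters' processing notes. Kept cells had at least 1000 UMIs, 400 genes and under 15% mitochondrial UMIs. Cells were clustered in Seurat 5.3.0 (R 4.3.3) on 2000 variable genes, with ribosomal protein genes barred, 30 components and Louvain resolution 0.2. Before clustering, the components were integrated across libraries by the Harmony method, rewritten here rather than run from its package. The same steps were then repeated without non-myogenic clusters. A cluster was named when at least 3 listed markers were raised 1.5-fold. With all genes eligible as variable genes, the differentiating-like cluster held 464 cells in place of 1407. Scrublet called 1, 5, 0 and 1 doublets and had not worked, so cells with the highest scores (241, 229, 766 and 533) were removed as an alternative only.

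Counts were summed per sample and state, since cells are not replicates. Sums ran from 46099310 to 74921651 UMIs over all barcodes of a library. State ratios used CPM plus 5, for genes with a mean of at least 10 CPM. Genotypes were compared by exact permutation test for shares and, across all genes passing filterByExpr (82 of 84 members, not *Rpl10l* and *Rpl39l*), by edgeR 4.0.16 quasi-likelihood test with TMM. DESeq2 1.42.0 was an alternative. The edgeR fit was tested on simulated data with log2 changes of 1 and 2. It called 74% to 82% of the changes of 1 and 99% to 100% of those of 2. Smaller changes, such as those of the members between genotypes, were not simulated. Named genes were the 5 members with most CPM, the 5 highest and 5 lowest departures, paralogs with partners, stalk proteins and *Rpsa*, and the 3 lowest p-values per population. *Rps4l* was not analysed here, and some genes that meet these rules are not reported here by name. The TOP list holds *Fau*, *Rack1* and other ribosomal components outside the naming rule, and shares *Npm1* with the biogenesis list. Gene positions are from GENCODE M21. Members, lists and tests were chosen with earlier results of these data known.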

Additional observations from a re-analysis of the deposited data

How the results depend on the processing

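Over 17 results, 168 alternative values were computed, of which 156 kept direction and call within the spread between samples and 0 reversed. The log2 ratio of activated-like to quiescent-like ribosomal protein shares was −0.27 with mitochondrial, immediate-early, chaperone and chemokine UMIs out of the denominator. Without integration of the libraries it was −0.22. It was −0.0755 with quiescent-like and chemokine-high activated-like cells set by fixed marker genes per cell, where those clusters gave −0.15. The cause of these shifts was not tested. Leaving out each sample gave −0.20 to −0.18. For the genotype ratio of shares, leaving out each sample gave 0.04 to 0.08 in all myogenic cells, 0.0094 to 0.11 in quiescent-like and 0.05 to 0.12 in activated-like cells. With quiescent-like and chemokine-high activated-like cells set by marker genes, the departures of *Rps6*, *Rpl22* and *Rpl37a* were 0.11, −0.07 and −0.08.

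Without a filter on low counts, 1 member (*Rpl39*) was called by edgeR in quiescent-like cells, and 282 of all genes, against 9 with the filter. Counts of all genes called also moved with DESeq2 (115, 23 and 109 in all myogenic, quiescent-like and activated-like cells, against 24, 9 and 50), while members called stayed at 0. Leaving out each sample gave 0 members called in each population. Over genes, samples with the same replicate number did not deviate together (correlations of −0.21, 0.05 and −0.16). In all kept cells, however, immediate-early, chaperone and chemokine genes took 4.33% and 6.54% of UMIs in control replicates 1 and 2. They took 4.41% and 6.52% in α-cdKO replicates 1 and 2. The biogenesis share was higher in control replicate 2 than 1 and lower in α-cdKO replicate 2 than 1. Whether the numbers pair the samples cannot be told from 2 samples per genotype. With the replicate block 0 members were called in each population, and 19, 20 and 41 of all genes. A crossed pairing, added after seeing the data, also called 0 members, and 137, 41 and 87 of all genes. With 2 pools per genotype, small differences between genotypes are not resolved.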
